A study of Mus musculus with 22 samples.

Results

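Prox1, C1ql2, Fibcd1, Zbtb20, Spink8 and Wfs1 are 6 genes widely used as markers of the hippocampus, and their levels were followed along a mouse brain cut in 3 directions. They are 6 of the 20129 gene symbols with a RefSeq-identified probe, and each was named by its symbol and read from 1 array probe. All 6 probes were among the 39621 that were well above background somewhere in every series. Transcriptome Tomography cuts a whole brain into serial slices, joins neighbouring slices to a slab, and measures the RNA of every such fraction by array. The 22 fractions came from 3 male C57BL/6J mice, with 10 coronal fractions of mouse 1, 6 horizontal fractions of mouse 2 and 6 sagittal fractions of mouse 3. The age was P7 in the titles but 3 days in the age field. In the paper the set of 22 fractions from 3 mice is the P7 brain. Every fraction was measured once on its own 1-colour Agilent array, so a position has no replicate, a series is a single animal, and p-values measure the scatter of single arrays around a curve. Coronal fraction 10 was a pool of slabs 10 and 11. Sagittal fraction 1 held slabs 1 and 2, and sagittal fraction 6 held slabs 7 to 9.

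The hippocampus holds the dentate gyrus, whose granule cells send mossy fibres to CA3, and the CA fields, whose pyramidal cells carry the signal on through CA1. Prox1 and C1ql2 are dentate granule cell markers, Fibcd1, Spink8 and Wfs1 are CA1 markers, and Zbtb20 is expressed in both cell types. Several of these genes are also known from other regions of the brain. A slab holds all the regions it crosses, and in such bulk RNA fewer cells of a type and less RNA per cell cannot be told apart.

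Levels are log2 of the processed signal minus the 75th percentile of the array, so a level of 0 is that percentile and 1 unit is a doubling. Feature Extraction marked 53.2% to 75.5% of probes per array as well above background. The spike-in slope, a check on the response of each array, was out of range on 7 arrays, which were coronal fractions 1 and 2, horizontal fractions 1 to 3 and sagittal fractions 1 and 3. The horizontal arrays therefore split by position into 3 out of range and 3 in range. The labels do not say from which end fractions were counted. A list of 6 hindbrain markers had its highest summed level in coronal fraction 1, and a list of 6 olfactory bulb markers had its highest in coronal fraction 10. The list of 6 hypothalamic markers was highest in horizontal fraction 6, and the list of 6 thalamic markers peaked in fraction 6 of the coronal series, 4 of the horizontal and 3 of the sagittal.

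Between repeated spots of 1 probe the median SD was 0.373 at levels under -4, 0.208 from -4 to -3, 0.138 from -3 to -2, 0.0922 from -2 to 0 and 0.0612 above 0. Each of the 6 genes had a single spot, so these SDs stand for its spot error, which leaves out labelling and the difference between animals. A difference between 2 fractions was called beyond the spot error when it was over 2 SD of that difference.

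Prox1, a homeodomain transcription factor of granule cell identity, rose to a narrow coronal plateau. Its coronal levels ran from -5.00 in fraction 8 through a median of -3.66 to -1.35 in fraction 6. Fractions 5, 6 and 7 lay within 1 log2 unit of the maximum, and fraction 6 stood above fraction 7 by 0.44, beyond the spot error. Coronal fractions 8, 9 and 10 were not well above background, so the highest fraction exceeded the lowest by at least 12.5-fold on this scale. With normexp background correction, which adds an offset of 50 to every signal, the coronal range of Prox1 was 1.48 log2 units in place of 3.65. Its horizontal levels ran from -4.09 to -2.77 with a median of -3.54, and fractions 3 and 4 shared the maximum. The horizontal range of Prox1 was 1.33 log2 units, against 0.22 with normexp and 2.50 with quantile normalization. Its sagittal levels ran from -5.73 in fraction 6, not well above background, through a median of -3.09 to -2.48 in fraction 3. In the sagittal series the maximum was not beyond the spot error of fraction 2, and it exceeded fraction 6 by at least 5.50-fold. The sagittal range was at least 2.46 log2 units with fraction 6, 1.12 without it and 0.46 with normexp.

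C1ql2, which encodes a secreted C1q-like protein of mossy fibre synapses, peaked in earlier coronal fractions than Prox1. Its coronal levels ran from -4.96 in fraction 10, not well above background, through a median of -3.50 to -1.90 in fraction 4. Fractions 4 and 5 alone lay within 1 log2 unit of the maximum and did not differ beyond the spot error, and the maximum exceeded the lowest fraction by at least 8.36-fold. The coronal range of 3.06 log2 units was 2.32 without fraction 10 and 0.80 with normexp. The level was -3.08 in fraction 6 and -3.31 in fraction 7, where Prox1 had its plateau, while Prox1 was at -3.92 in fraction 4. These dentate markers had different coronal maxima, and coronal fractions 4 to 7 lay on 1 slide, with the slope in range on each array. Its horizontal levels ran from -4.43 in fraction 1, not well above background, to -3.09 in fraction 6, with a median of -3.68, and the range of 1.34 log2 units was 0.69 without fraction 1. Its sagittal levels ran from -4.03 in fraction 1 through a median of -3.59 to -2.45 in fraction 3, which stood 0.86 above fraction 4, beyond the spot error. Sagittal fraction 3 is among the arrays with the slope out of range, and without it the sagittal range fell from 1.58 to 0.72 log2 units.

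Fibcd1, a chitin-binding membrane receptor and CA1 marker, had a coronal peak with lower levels on both sides. Its coronal levels ran from -3.07 in fraction 9 through a median of -2.60 to -0.36 in fraction 5, a 6.52-fold difference, with the probe above background in all 10 fractions. Fractions 4, 5 and 6 lay within 1 log2 unit of the maximum, and the range of 2.71 log2 units was 1.93 without fraction 5 and 1.78 with normexp. Its horizontal levels ran from -5.31 in fraction 1, the only fraction of 22 where it was not well above background, through a median of -3.04 to -2.28 in fraction 5. The horizontal maximum exceeded fraction 1 by at least 8.17-fold, and the horizontal range of 3.03 log2 units was 1.02 without fraction 1 and 0.66 with normexp. Its sagittal levels stayed between -3.30 in fraction 6 and the maximum in fraction 2, with a median of -2.60 and a 2.47-fold difference.

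Spink8, a Kazal-type serine protease inhibitor and CA1 marker, had a coronal range of 4.49 log2 units, which was 2.01 with normexp. Its coronal levels ran from -5.39 in fraction 3 through a median of -3.67 to -0.90 in fraction 6. The maximum stood 0.82 above fraction 5, beyond the spot error, and exceeded the lowest fraction by at least 22.5-fold, since coronal fractions 3, 4 and 10 were not well above background. Its horizontal levels ran from -2.92 in fraction 1 through a median of -2.25 to -1.38 in fraction 3. Its sagittal profile ran opposite to that of Prox1, from -2.98 in fraction 4 through a median of -2.63 to 0.27 in fraction 6, a 9.53-fold difference. Both outer sagittal fractions were the highest, with -0.86 in fraction 1, and both were pools of several slabs. The level in sagittal fraction 6 was the highest of Spink8 in all 22 fractions and 1.13 above sagittal fraction 1, and without it the sagittal range was 2.12 in place of 3.25 log2 units.

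Wfs1 encodes wolframin, an endoplasmic reticulum membrane protein known from CA1 and also from the striatum, amygdala and superficial cortex. Its coronal levels ran from 0.30 in fraction 2 through a median of 2.49 to 3.09 in fraction 6, a 6.90-fold difference. Fractions 4 to 9 all lay within 1 log2 unit of the maximum, a broad plateau. The coronal range of 2.79 log2 units was 2.11 without fraction 2 and 2.71 with normexp. Its horizontal levels ran from 0.87 in fraction 2 through a median of 1.76 to 2.81 in fraction 5, and fractions 4, 5 and 6 were the high ones. These are also the horizontal arrays with the slope in range. With only such arrays the horizontal range of Wfs1 was 0.66 in place of 1.95 log2 units. Its sagittal levels lay between 1.71 and 2.12, and all 6 fractions were within 1 log2 unit of the maximum.

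Zbtb20, a zinc finger transcription factor of granule and CA pyramidal cells that is also found in astrocytes, was above background in every fraction. Its coronal levels ran from 1.40 in fraction 9 through a median of 2.22 to 2.88 in fraction 6, and 7 of 10 fractions lay within 1 log2 unit of the maximum. The coronal maximum did not exceed fraction 5 beyond the spot error, and fraction 10 was again high at 2.56. Its horizontal levels ran from 0.43 in fraction 1 through a median of 1.87 to 2.50 in fraction 4, a 4.21-fold difference, with fractions 3 and 4 level. Without fraction 1 the horizontal range was 1.16 in place of 2.07 log2 units. Its sagittal levels ran from 0.88 in fraction 6 to 2.33 in fraction 3, with a median of 2.00, and the range was 0.71 in place of 1.45 log2 units without fraction 6.

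**Figure D1:**
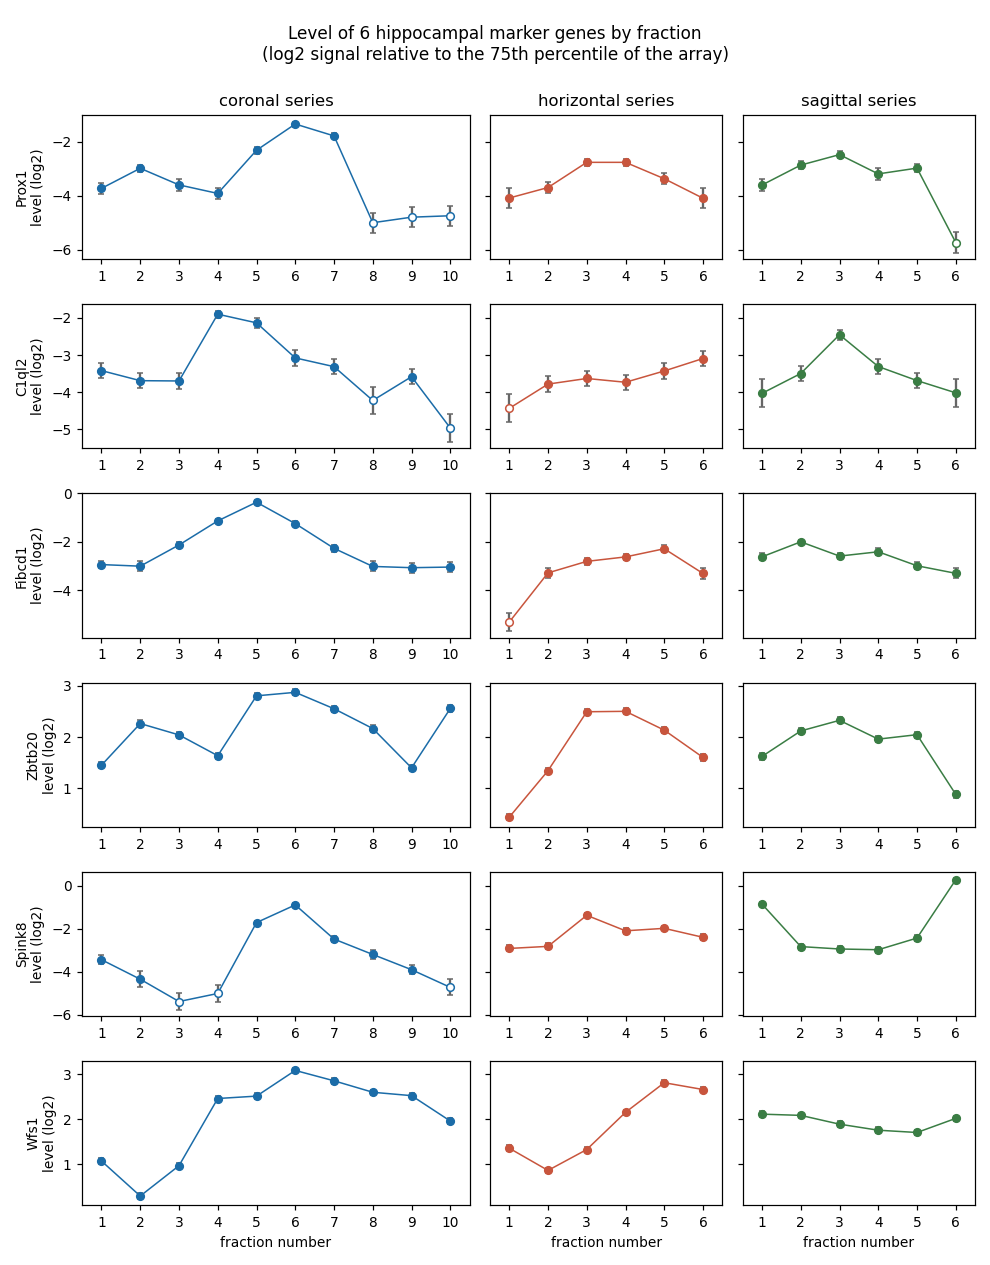
Level of each gene (vertical axis, log2 signal relative to the 75th percentile of the array) against the fraction number (horizontal axis) in the coronal, horizontal and sagittal series. Points are single arrays, open points are not well above background, and bars are the median SD between spots at that level. Prox1 and Spink8 peak in coronal fraction 6 and C1ql2 in fraction 4, while Wfs1 stays high over coronal fractions 4 to 9.

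Change along each series was tested with limma on the 39621 probes well above background somewhere in every series, in a curve with linear and quadratic terms for every axis. Along the coronal axis 3 of the 6 genes passed, against 19.8% of the probes tested. Wfs1 had an adjusted p of 0.00608 and a fitted range of 2.44 log2 units (residual SD 0.44). C1ql2 had an adjusted p of 0.0265 with a fitted range of 2.27 (residual SD 0.53), and Fibcd1 had 0.0331 with 2.26 (residual SD 0.58). Prox1 at 0.0899, Spink8 at 0.222 and Zbtb20 at 0.318 did not pass. The fitted curve was higher in the middle for all 6 genes, and no alternative with a quadratic term changed that sign. The Wfs1 call was kept without any 1 fraction. The C1ql2 call was lost without coronal fraction 5 (adjusted p = 0.0603) or 10 (0.139), and the Fibcd1 call without coronal fraction 4 (0.0627), 5 (0.0694), 6 (0.0757) or 9 (0.0546). Prox1 passed without coronal fraction 8 (0.0461) and Spink8 without coronal fraction 1 (0.0372).

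With normexp background correction C1ql2 was at 0.351, and with a dim spike-in probe as a covariate Fibcd1 was at 0.0988. With the slide as a block the adjusted p was 0.0927 for C1ql2 and 0.182 for Fibcd1, and with only the 15 arrays whose slope was in range it was 0.0949 and 0.132. In the coronal series alone none of these genes passed, with 0.0736 for Wfs1, 0.126 for C1ql2 and 0.151 for Fibcd1.

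Along the horizontal axis 2 of the 6 genes passed, against 6.57% of the probes tested. Zbtb20 had an adjusted p of 0.0452 with a fitted range of 2.13 log2 units (residual SD 0.42), and Fibcd1 had 0.0492 with 2.83 (residual SD 0.58). Wfs1 stood at 0.0676, C1ql2 at 0.335 and Prox1 at 0.419, and Spink8 had an unadjusted p of 0.623. Both calls were lost without any 1 of the 6 horizontal fractions, any 1 of the 6 sagittal fractions (adjusted p from 0.0583 to 0.0684), or coronal fraction 6 or 7. The Fibcd1 call was also lost without coronal fraction 4 (0.0553) or 9 (0.0546) and the Zbtb20 call without coronal fraction 5 (0.0528), while Wfs1 passed without coronal fraction 1 (0.0201) or 2 (0.0348). With the slide as a block Wfs1 passed as well (0.0435), which made 3 of 6. All horizontal arrays lay on 1 slide, so the block could not adjust this axis for the slide. Without horizontal fraction 1 the adjusted p was 0.544 for Fibcd1 and 0.196 for Zbtb20. Both were also lost with a dim spike-in probe as a covariate, at 0.176 for Fibcd1 and 0.135 for Zbtb20. Horizontal fraction 1, the lowest for both genes, is among the 3 with the slope out of range.

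Along the sagittal axis no gene passed in limma. For the linear term (side to side) 0 of 6 passed against 10.2% of the probes tested, and none had an unadjusted p under 0.05. For the quadratic term, the middle against both sides, 0 of 6 passed against 0.0303% of the probes tested. That share is for adjusted p and is no background for unadjusted p. An unadjusted p under 0.05 in limma was seen for 3 genes. These were Spink8, higher at the sides (p = 0.0135, adjusted p = 0.199 in limma), Prox1, higher in the middle (p = 0.0259, adjusted p = 0.255 in limma), and Zbtb20, higher in the middle (p = 0.0316, adjusted p = 0.276 in limma). The fitted sagittal range was 3.36 log2 units for Spink8, 3.03 for Prox1, 1.34 for Zbtb20 and 0.38 for Wfs1.

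A Pearson r above 0.85 between log2 values over the 22 fractions was counted as a shared profile. None of the 15 pairs of the 6 genes reached it, and their median r was 0.298, beside 0.025 over all pairs of 16724 genes. The fractions of a series are neighbouring slabs of 1 brain, and the arrays differ in spike-in slope, so the points are not independent. The dentate markers Prox1 and C1ql2 had an r of 0.48 (rho 0.50). The CA1 markers gave 0.41 for Fibcd1 with Wfs1, 0.35 for Spink8 with Wfs1 and 0.02 for Fibcd1 with Spink8. The highest Pearson r joined a dentate and a CA1 marker, C1ql2 with Fibcd1 at 0.70 (rho 0.62), and it was 0.62 without coronal fraction 5. Zbtb20 had 0.67 with Fibcd1 (rho 0.55) and 0.66 with Prox1 (rho 0.69), against 0.27 with C1ql2. By rho Prox1 with Zbtb20 and Prox1 with Fibcd1 (0.67) stood above C1ql2 with Fibcd1. Among all 16723 other genes ordered by likeness to Prox1, Zbtb20 stood at place 92 and C1ql2 at place 1073.

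**Figure D2:**
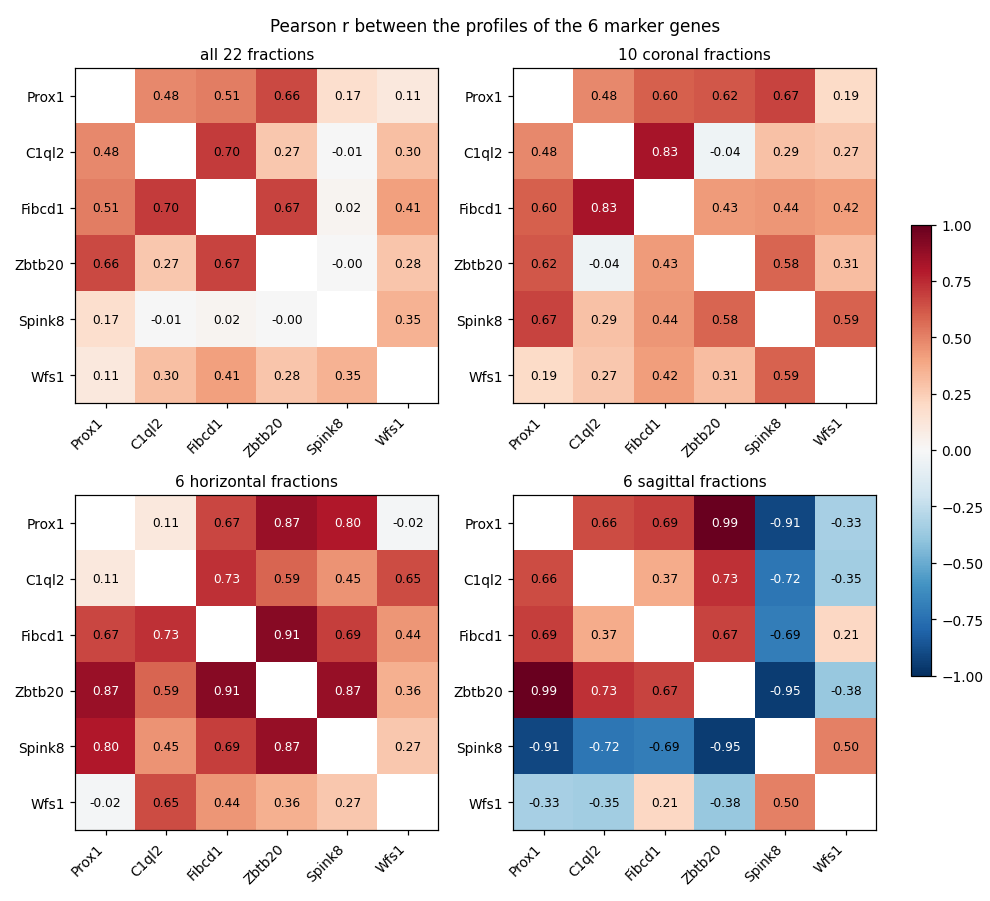
Pearson r (colour and number) between the log2 levels of each pair of the 6 genes (both axes), over all 22 fractions and over the 10 coronal, 6 horizontal and 6 sagittal fractions. Over 22 fractions the highest value is 0.70 for C1ql2 with Fibcd1, and Spink8 turns from positive with Prox1 in the coronal series to -0.91 in the sagittal series.

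Within the coronal series alone C1ql2 and Fibcd1 reached 0.83, and within the 7 coronal arrays of a single slide 0.86. Over the 10 coronal fractions Prox1 was most like Spink8 (0.67), and over the 7 arrays of that slide Zbtb20 (0.73). Within the horizontal series 3 pairs exceeded 0.85, which were Fibcd1 with Zbtb20 (0.91), Zbtb20 with Spink8 (0.87) and Prox1 with Zbtb20 (0.87). With 6 fractions such values were frequent, since 6.65% of all gene pairs exceeded 0.85 over the horizontal fractions and 6.72% over the sagittal ones, beside 0.769% over 22 fractions. Within the sagittal series Prox1 and Zbtb20 had an r of 0.99. Spink8 was opposite to both, with -0.91 for Prox1 and -0.95 for Zbtb20. Prox1 with Spink8 was therefore 0.67 along the coronal axis, 0.80 along the horizontal and -0.91 along the sagittal, and the r over all fractions rose from 0.17 to 0.52 without sagittal fraction 6.

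**Figure D3:**
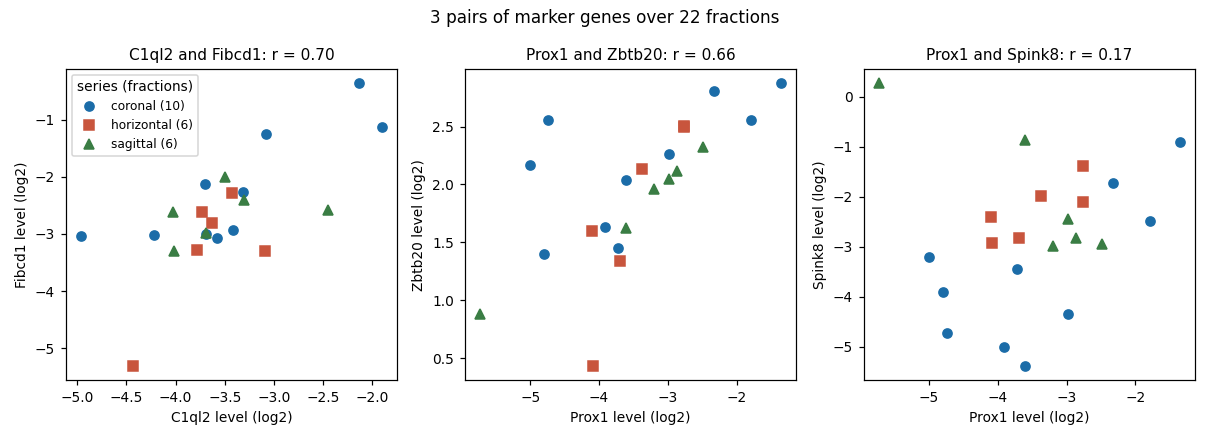
Log2 levels of 3 pairs of genes against each other, with 1 point per fraction coloured by series. C1ql2 and Fibcd1 share 2 high coronal fractions (r = 0.70), Prox1 and Zbtb20 rise together along a line in the sagittal series (r = 0.66 overall), and for Prox1 and Spink8 a single sagittal fraction lies at the upper left (r = 0.17).

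The promoters of C1ql2 and Fibcd1, the pair with the highest Pearson r over the 22 fractions, are shown as the 250 bases before the gene start in RefSeq on GRCm38.p6. The table held all of the genes but Spink8. C1ql2 lies at chr1:120340332-120340581 on the plus strand and Fibcd1 at chr2:31846006-31846255 on the minus strand. Capitals mark GGGCGG, a GC box, read on both strands.
C1ql2: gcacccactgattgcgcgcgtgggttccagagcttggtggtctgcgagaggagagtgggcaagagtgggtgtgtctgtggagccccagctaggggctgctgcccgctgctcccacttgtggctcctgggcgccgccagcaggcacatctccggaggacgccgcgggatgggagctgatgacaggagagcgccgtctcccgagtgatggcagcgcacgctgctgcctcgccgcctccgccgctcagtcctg
Fibcd1: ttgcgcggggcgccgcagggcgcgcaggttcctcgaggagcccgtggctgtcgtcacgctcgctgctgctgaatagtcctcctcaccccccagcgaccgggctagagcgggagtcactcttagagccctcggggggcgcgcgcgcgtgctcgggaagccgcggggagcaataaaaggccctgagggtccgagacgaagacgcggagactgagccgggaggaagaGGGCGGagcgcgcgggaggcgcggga
The GC box was found at 1 place in Fibcd1 and not in C1ql2, and 32.7% of the 32851 promoter windows of this length held it. The E-box forms CAGCTG, in 13.0% of windows, and CAGATG, in 14.4%, were in neither window on either strand. For the other genes, CAGATG was found at 1 place in Wfs1 and at 1 place in 1 of the 2 Prox1 windows, and in no window of Zbtb20.

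Each gene was then set beside 11 lists of markers by its r with the mean profile of the list. The hippocampal lists had little common profile of their own. Among the 9 measured of 10 dentate granule cell genes the median r of pairs was 0.168, and among the 9 measured of 10 CA pyramidal cell genes it was 0.262. The cerebellar granule cell list had 0.787 and the hindbrain list 0.783, and the remaining 7 lists lay between 0.0371, for interneurons of the caudal ganglionic eminence, and 0.734. Along the coronal axis 3 dentate genes (Dsp, Trpc6 and Neurod1) and 5 CA genes (Grik4, Coch, Rgs14, Pou3f1 and Mpped1) passed in limma, against 19.8% of the probes tested, and are named here because they passed. The cortical list had 5 of 6 and the hindbrain list 6 of 6. The quadratic coefficient was positive for Neurod1, a granule cell transcription factor, and negative for the other 7. Among the genes of these lists that did not pass, the sign of the coefficient was mixed.

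Prox1 had an r of 0.61 with the thalamus list and 0.48 with the dentate list. Its r with the list of interneurons of the caudal ganglionic eminence, another known site of Prox1, was 0.06, and the genes of that list had little profile in common. C1ql2 had 0.60 with the dentate list and 0.59 with the thalamus list. Fibcd1 had 0.81 with the thalamus list, 0.72 with the dentate list and 0.38 with the CA list. Its r with the CA list was 0.42 along the coronal axis, 0.89 along the horizontal and 0.23 along the sagittal. Zbtb20 had 0.76 with the thalamus list, 0.44 with the dentate list and 0.25 with the CA list, and its r with astrocyte markers was 0.35. None of these differences between correlations was tested.

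Wfs1 had an r of 0.86 with the CA list, the only value over 0.85 between the 6 genes and the 2 hippocampal lists. The value was 0.94 along the coronal axis, 0.69 along the horizontal and 0.79 along the sagittal, and it was 0.80 without coronal fraction 2. With the cortical list Wfs1 had 0.93 along the coronal axis, -0.77 along the horizontal and 0.83 along the sagittal. Wfs1 had 0.74 with the dentate list (rho 0.61), beside 0.72 for Fibcd1 (rho 0.69), and had 0.76 with the interneuron list, 0.74 with the striatal list, 0.67 with the cortical list and 0.66 with the thalamus list, against -0.67 with the cerebellar list. Spink8 had 0.44 with the CA list (rho 0.39), 0.42 with the cortical list, 0.38 with the interneuron list (rho 0.47) and 0.12 with the thalamus list. The thalamus values turned sign between series. For Spink8 they were 0.73 along the coronal axis, 0.69 along the horizontal and -0.93 along the sagittal. For Wfs1 they were 0.82, 0.69 and -0.65 in the same order.

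**Figure D4:**
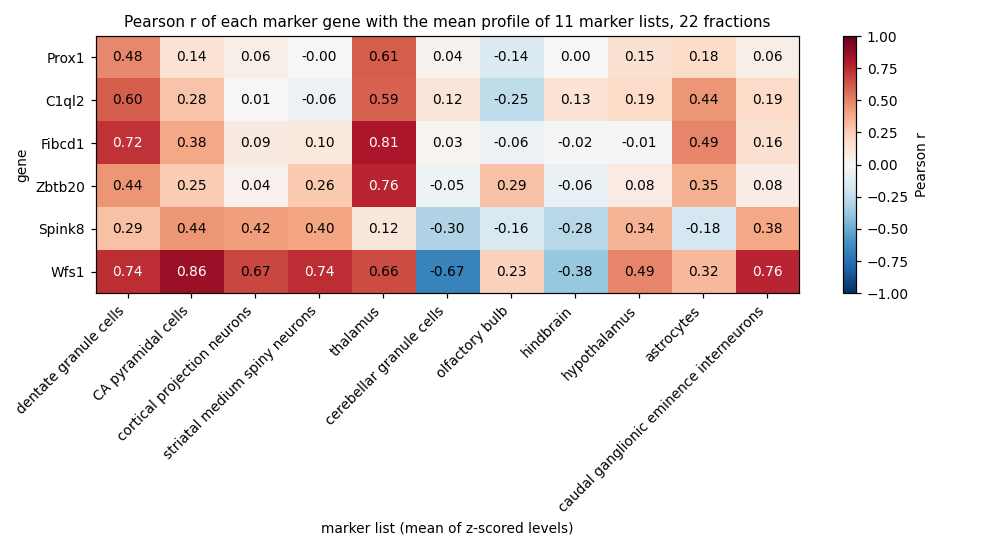
Pearson r over 22 fractions (colour and number) of each of the 6 genes (vertical axis) with the mean of the z-scored levels of 11 marker lists (horizontal axis). Wfs1 has positive values with 9 lists and reaches 0.86 with the CA list, and every gene but Spink8 has a value of 0.59 or more with the thalamus list. Over the sagittal fractions alone Wfs1 (-0.65) and Spink8 (-0.93) were both negative with the thalamus list.

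The mean of the dentate markers Prox1 and C1ql2 was most like Grik4 (r = 0.73), a kainate receptor subunit of the CA list, followed by Tcf7l2 (0.70) and Ntng1 (0.67) of the thalamus list, out of 71 list genes. It was least like Doc2g of the olfactory bulb list (-0.54). The other genes of the CA list lay between -0.36 (Lefty1) and 0.65 (Amigo2) with this dentate mean. The mean of the CA1 markers Fibcd1, Spink8 and Wfs1 was most like Slc1a2 (0.87), a glutamate transporter of astrocytes, followed by Grik4 (0.77) and Coch (0.75) of the CA list. It was least like Fat2 of the cerebellar list (-0.57). The other genes of the astrocyte list lay between -0.09 (Aldh1l1) and 0.38 (Slc1a3) with this CA1 mean, so Slc1a2 does not stand for its list. Pairs of the CA1 markers had an r of only 0.02 to 0.41 with each other.

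The number of probes with an r above 0.85 was 475 for Wfs1, 24 for Zbtb20, 17 for Fibcd1, 2 for C1ql2 and 0 for Prox1 and Spink8, beside a median of 58 over all probes of the set. The genes most like Wfs1 were Tmem179 (r = 0.96), Prkacb (0.95), a catalytic subunit of protein kinase A, and Slc9a7 (0.95). Those most like Fibcd1 were Nrp1 (0.88), a semaphorin receptor, Tigar (0.87) and Ash1l (0.86). Zbtb20 was most like Hunk (0.89), Zc3h11a (0.86) and Celsr1 (0.86), a planar polarity cadherin. Genes among those most like C1ql2 were Slc18a2 (0.87), the vesicular monoamine transporter, and Kazn (0.82). Prox1 was most like Fign (0.82), Tab2 (0.78) and Tgfb2 (0.77). Spink8 was most like Kera (0.78), detected in 4 fractions only, Slc26a4 (0.75) and Gpr39 (0.73). None of the 6 genes was among the 3 nearest of another.

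Neither a dentate profile common to Prox1 and C1ql2 nor a CA1 profile common to Fibcd1, Spink8 and Wfs1 was found at the chosen threshold. The genes with 2 or 3 coronal fractions within 1 log2 unit of the maximum were Prox1, C1ql2, Fibcd1 and Spink8. Wfs1 was spread over 6 such fractions and Zbtb20 over 7. This split holds for the main scale and the coronal axis only. With normexp the coronal range of C1ql2 was 0.80 log2 units and all 10 of its fractions lay within 1 unit. On the main scale the horizontal counts were 3 for Wfs1 and Spink8, 4 for Prox1, Fibcd1 and Zbtb20, and 5 for C1ql2. The sagittal counts were 1 for Spink8, 2 for C1ql2, 4 for Prox1, 5 for Fibcd1 and Zbtb20, and 6 for Wfs1.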

How the data were processed

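Total RNA of 22 fractions was labelled with Cy3 and hybridised to Agilent arrays designed on mm9. Per the file headers, Feature Extraction 10.10.1.1 gave 1 background-subtracted, linear intensity for a spot. The value table deposited by the authors is on a log2 scale, and 99.9% of its values lay within 0.02 of log2 intensity less the array's 75th percentile. Here control and outlier spots were left out, spots of a probe were averaged and the same scale was used, for 55600 probes. Gene symbols came from RefSeq. Tests were run with limma 3.58.1 in R 4.3.3 and correlations in Python 3.11.15, with Benjamini-Hochberg values over 39621 probes and a threshold of 0.05. The model had 9 coefficients and 13 residual degrees of freedom, and recovered 88.5% to 100% of 200 simulated probes changed over a range of 8 residual SDs, which is more than the fitted range of any of the 6 genes, with 7 to 20 false calls per term (20 for horizontal position). Normexp was run with an offset of 50 on median intensities. The 6 genes, the lists and the naming rule (3 nearest genes per gene, and the 3 most and 1 least alike list genes) were chosen with earlier results of these data known. For C1ql2, 1 of the nearest genes is not reported here. The strand of promoter windows was checked on 1681 overlapping pairs. The number of arrays limits the precision.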

Additional observations from a re-analysis of the deposited data

Results flagged for a closer look

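In 2 of 18 sets of fractions (6 genes in 3 series) a single fraction stood far from the others by Dixon's ratio of the gap to the range. Chance flags about 1 set in 20. Prox1 was at -5.73 in sagittal fraction 6, not well above background, with a ratio of 0.654. With that value at the floor of its array the ratio was 0.543, under the critical value of 0.625. Fibcd1 was at -5.31 in horizontal fraction 1, also not well above background, with a ratio of 0.662.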

How the results depend on the processing

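No paired analysis was possible because a fraction number marks a position along a different axis of a different mouse in each series. Along the coronal axis the count of 3 genes became 1 with the arrays whose slope was in range and 1 with the slide as a block, 0 in the coronal series alone and 0 with a linear term only, and 1 among probes detected in all 22 fractions, where 2 of the genes were tested. Leaving out a fraction gave 1 to 4. Along the horizontal axis the count of 2 became 1 with arrays centred on the median, with quantile normalization, with no scaling and with normexp. It became 0 with the dim spike-in covariate, with arrays in range, with all probes, with a linear term only and in the horizontal series alone. With the slide as a block it was 3, but all horizontal arrays lay on 1 slide, so the block could not adjust this axis. Leaving out a fraction gave 0 to 3. The sagittal quadratic term gave 1 with normexp (Spink8, adjusted p = 0.0284 in limma). The sagittal counts stayed 0 without any 1 fraction. Pairs with an r above 0.85 numbered 1 with quantile normalization (C1ql2 with Fibcd1, 0.86), 1 in the coronal arrays of 1 slide, 3 over the horizontal fractions and 1 over the sagittal ones. They stayed 0 without any 1 fraction. Of the 12 values of genes with hippocampal lists, 1 exceeded 0.85, against 2 with no scaling, 0 with normexp, with arrays in range, on the linear scale and by rho, 3 in the horizontal series (Fibcd1 and C1ql2 with the CA list and Wfs1 with the dentate list, without Wfs1 with the CA list), and 0 to 1 without a fraction. Of the 18 nearest genes, 4 stayed among the nearest with quantile normalization, 1 with arrays in range, 0 in the horizontal series, the sagittal series or the coronal arrays of 1 slide alone, and 8 to 18 without a fraction. The median over probes of an array differed by up to 0.60 log2 units between arrays, which centring removes. A next-highest probe was not run, since each gene has 1. For values where a setting changed a call, the cause was not tested. Levels under -4 had the largest spot error.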
